A study of Mus musculus with 6 samples.

Results

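The 9 genes described here encode zinc finger transcription factors that act mainly or partly as repressors while cortical progenitors become neurons: Zfp238, Prdm8, Zeb1, Zeb2, Myt1, Myt1l, Rest, Scrt1 and Scrt2. They were taken by symbol, and all 9 were found among 20367 genes joined across 6 files. All 9 passed the filter on low values (above 0 in at least 1 library), and 8 had a mean of at least 10 CPM over the libraries (deposited values rescaled so that each library sums to 1000000). Rest, with a mean of 9.33 CPM, did not. The data came from C57BL/6J embryos that carried a Tbr2(Eomes)-GFP reporter and a DCX-mRFP reporter, so that every library shares both alleles. Cortical cells sorted as positive for both colors are called IPN (neurons derived from intermediate progenitors), and cells with red fluorescence only are called non-IPN. Each population gave 1 library at each of embryonic days 13.5, 15.5 and 16.5, 6 libraries in all. The gates rest on reporter proteins, which can outlast the mRNA of the gene that drives them, and nothing in the labels says which embryos or litters went into a library.

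In the developing cortex, radial glia and intermediate progenitors produce glutamatergic projection neurons, while GABAergic interneurons migrate in from the ganglionic eminences. Repressors take part at each step: Rest holds neuronal genes silent in non-neuronal and progenitor cells, the Zeb and Scratch factors read E-box sequences and affect cell adhesion, migration and the departure from the ventricular surface, and the Myt1 family represses Notch and non-neuronal genes in cells that turn into neurons. Zfp238 (also Zbtb18 or RP58) and Prdm8 act in newly made projection neurons.

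Column totals of the 6 libraries ran from 12583677 to 32538995. The deposited values are scaled, so the sequencing depth is unknown. The E15.5 libraries were made from 1000000 cells per population without amplification, and the E13.5 and E16.5 libraries from 10000 cells per population after whole transcriptome amplification, per the labels' protocols. A level at E15.5 and a level at another day therefore differ in protocol as well as in age, which cannot be told apart. The reporter gene Eomes stood at 437.1, 101.7 and 98.4 CPM in IPN and at 214.2, 72.5 and 72.0 CPM in non-IPN at E13.5, then E15.5, then E16.5. Dcx was above 855 CPM in every library. Hemoglobin made up 4.92% of all values for non-IPN at E13.5, and 0.0275% or less elsewhere.

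**Figure D1:**
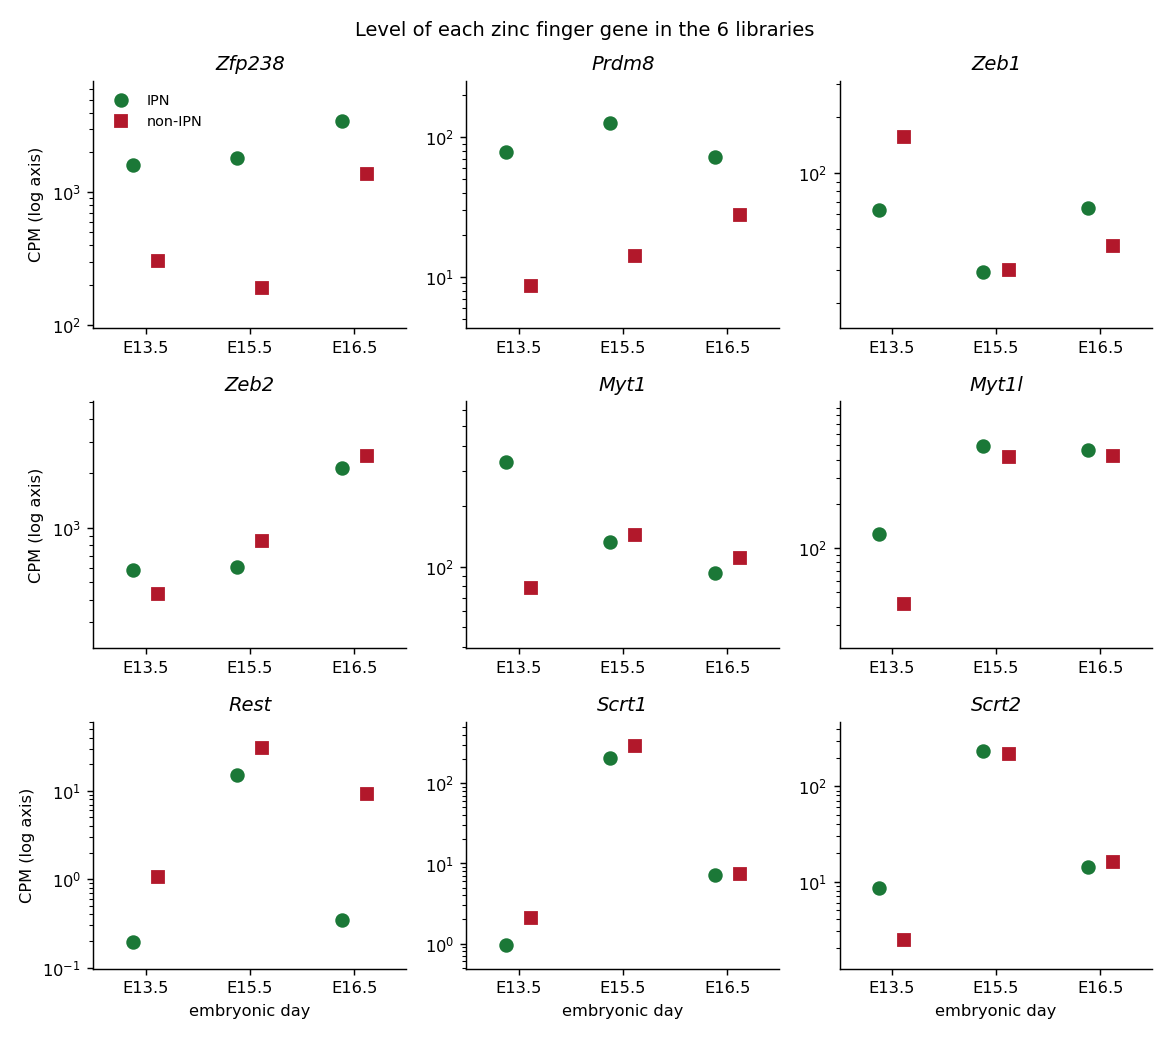
Level of each of the 9 genes in CPM (log axis, own range per gene) at each embryonic day, with IPN as green circles and non-IPN as red squares. Each point is 1 library; Zfp238 and Prdm8 lie higher in IPN at every day, and Scrt1 and Scrt2 lie far higher at E15.5 than at the amplified days.

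Zfp238 and Prdm8 were higher in IPN than in non-IPN at every day, and they were the 2 members called in the population comparison. Zfp238 encodes a BTB zinc finger repressor needed for the differentiation and migration of projection neurons. Prdm8 encodes a PR domain protein that forms a repressor complex with the bHLH factor Bhlhe22 in the nervous system.

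Zfp238 was at 1610.4 CPM in IPN and 302.5 CPM in non-IPN at E13.5, a 5.32-fold ratio. At E15.5 it was at 1813 CPM in IPN and 190.4 CPM in non-IPN, a 9.52-fold ratio, and at E16.5 at 3453 CPM in IPN and 1378 CPM in non-IPN, a 2.51-fold ratio. The lowest IPN library (E13.5) thus lay above the highest non-IPN library (E16.5), a comparison across days. The share of all tested genes with such a gap was not counted. The ratio was smallest at E16.5.

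Prdm8 was lower in level and was also higher in IPN on each day. It was at 78.2, 126.6 and 72.6 CPM in IPN at E13.5, then E15.5, then E16.5, and at 8.65, 14.2 and 28.0 CPM in non-IPN on the same days. The IPN level stayed between 72.6 and 126.6 CPM, while the non-IPN level was highest at E16.5. The 2 populations did not overlap, a gap whose share over all tested genes was not counted. The ratios were 9.04-fold, 8.93-fold and 2.60-fold.

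The comparison asked how the sorted populations differ when the 2 libraries of each day are treated as a pair. In limma on log2(value + 1), the IPN minus non-IPN difference was 2.47 ± 0.29 for Zfp238 (SE from 1 fit of 6 libraries, adjusted p = 0.00128) and 2.70 ± 0.36 for Prdm8 (adjusted p = 0.00246). Of the 9 genes, 2 were called higher and 0 lower at an adjusted p under 0.05, where 0.982% of the 19561 tested genes were called higher, 2.41% lower and 3.39% in either direction. The median difference of the 9 genes was 0.71, beside -0.02 over all tested genes. In deposited values the sign was the same at all 3 days for 5 of the 9: higher in IPN for Zfp238, Prdm8, Myt1l and Scrt2 (14.2% of tested genes were higher at all 3 days) and lower for Rest (15.2% were lower). For Scrt2 the E16.5 difference was 0.03, and its CPM ratio that day was 0.878, so its sign depends on the scale. Both calls were lost with scaling to column totals (limma adjusted p = 0.0549 for Zfp238 and 0.0633 for Prdm8) without the unamplified E15.5 pair (0.0502 and 0.140), without limma's trend and robust options (0.263 and 0.252) and without day as a block (0.362 and 0.856). P-values here measure how a difference varied over 3 days with 1 library each, and that spread may be technical.

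**Figure D2:**
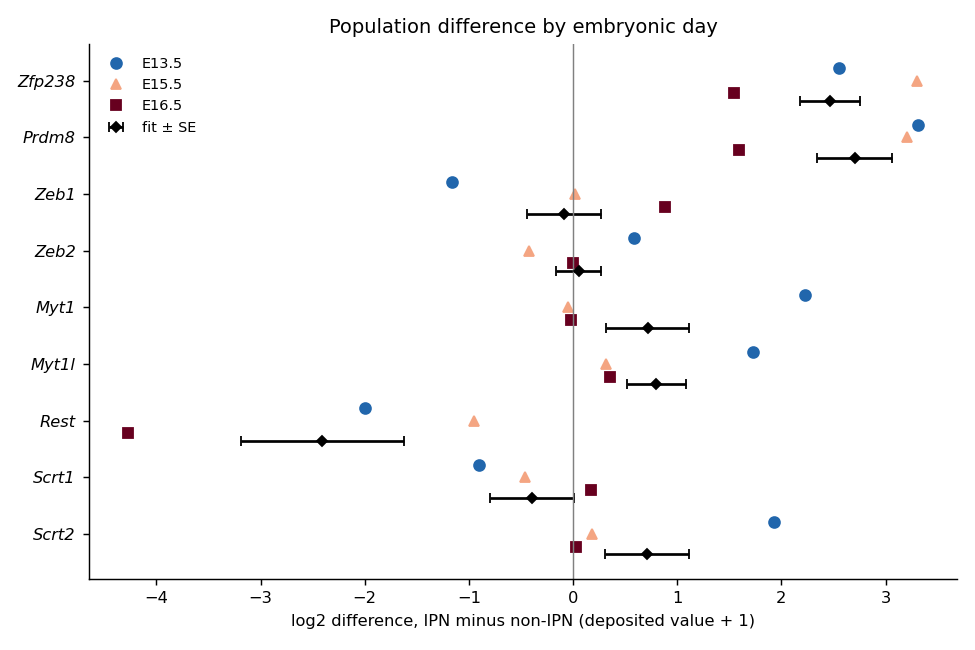
Log2 difference of IPN minus non-IPN, from deposited values plus 1, for each gene at E13.5 (circles), E15.5 (triangles) and E16.5 (squares), with the fitted difference and its SE over 6 libraries as black diamonds. Zfp238 and Prdm8 lie right of 0 at all 3 days, and Rest lies left of 0 at all 3 days.

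These 2 genes moved together over the libraries, so the sequence before their outermost listed start is shown, from RefSeq (GRCm38.p6, which is not the mm9 build of the files). Each is the 250 bases before the start, 5′ to 3′ on the plus strand, with capitals marking an E-box. Zfp238 is at chr1:177442101-177442350 and Prdm8 at chr5:98180619-98180868.
Zfp238: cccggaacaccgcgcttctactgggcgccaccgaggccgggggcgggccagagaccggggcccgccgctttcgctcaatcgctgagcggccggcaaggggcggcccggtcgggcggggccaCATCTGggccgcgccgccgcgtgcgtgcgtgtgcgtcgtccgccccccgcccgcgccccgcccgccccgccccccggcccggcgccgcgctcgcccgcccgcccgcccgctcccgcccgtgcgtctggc
Prdm8: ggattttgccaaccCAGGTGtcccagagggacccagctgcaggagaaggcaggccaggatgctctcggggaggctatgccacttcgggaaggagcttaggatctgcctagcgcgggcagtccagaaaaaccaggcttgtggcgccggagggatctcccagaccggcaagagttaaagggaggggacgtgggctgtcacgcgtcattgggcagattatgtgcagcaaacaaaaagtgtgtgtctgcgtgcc

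The Zfp238 window held 1 CATCTG, the reverse complement of CAGATG, beginning 129 bases before the start. CAGATG is the E-box form read by NeuroD factors and also the core that Zfp238 itself binds. The windows of all 5 starts listed for Zfp238 held CAGATG or CATCTG, but some of these windows overlap. Over 32851 windows of 250 bases in the same table, 14.4% held it on either strand. The Prdm8 window held no CAGATG or CATCTG and 1 CAGGTG, the E-box form read by Zeb, Snail and Scratch factors, beginning 236 bases before the start; 17.2% of all windows held CAGGTG or CACCTG. Among the other matched genes, the Myt1l window held 1 CATCTG, 146 bases before its start, and those of Zeb2 and Myt1 held neither E-box. The Myt1 core AAAGTTT or its reverse complement AAACTTT was in neither printed window and in 4.20% of all windows. It was in the windows of 2 of the 5 starts of Zfp238 and of 1 of the 3 starts of Myt1. Promoter entries were found for 5 of the 9 genes, and Zeb1, Rest, Scrt1 and Scrt2 are named only. A match describes these letters and not a bound site.

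Bhlhe22, the partner of Prdm8, was higher in IPN as well. It was at 905.8, 383.0 and 1284 CPM in IPN at E13.5, then E15.5, then E16.5, and at 127.8, 43.6 and 583.4 CPM in non-IPN (difference 2.504 ± 0.32, limma adjusted p = 0.00199). As with Prdm8, its non-IPN level was highest at E16.5. The projection neuron marker list moved in the same libraries: its 10 genes summed to 3619, 5796 and 5925 CPM in IPN and to 592.2, 475.6 and 2935 CPM in non-IPN, with 7 called higher and 0 lower and none of the 10 at 0 anywhere. In sorted bulk samples, fewer cells of a type and less RNA per cell cannot be told apart, and the part of the projection neuron share in the Zfp238 and Prdm8 differences was not tested.

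Genes that Zfp238 is known to repress lay on both sides. Zfp238 represses the Id genes, which block bHLH factors, and Neurog2, Neurod1 and Rnd2. Of these 7 genes, Neurod1 (2.86 ± 0.25, adjusted p = 0.000222) and Id2 (2.18 ± 0.32, adjusted p = 0.00458) were called higher in IPN, and Id3 was called lower (-5.51 ± 0.86, adjusted p = 0.00588), all with limma. Id2 was at 613.3, 409.4 and 2246 CPM in IPN and at 123.1, 52.0 and 1271 CPM in non-IPN at the 3 days, and Zfp238 and Id2 were both highest in IPN at E16.5. Id3 was listed at 0 in IPN at E13.5 and was at most 0.958 CPM in IPN, against 18.3 to 20.6 CPM in non-IPN. Id1, Id4, Neurog2 and Rnd2 were not called between populations, where 0.982% of all tested genes were called higher and 2.41% lower. With age, Id2 rose and Neurod1 and Neurog2 fell among the 7, and Id4 had a positive population by day term (1.31 ± 0.17 per day, limma adjusted p = 0.00166). Rnd2 was at 1.49, 140.8 and 0.889 CPM in IPN and at 0.215, 27.0 and 0.0795 CPM in non-IPN. Dnmt3a, a DNA methyltransferase reported to bind Zfp238, was called lower in IPN (-0.98 ± 0.23, limma adjusted p = 0.0491), at 43.0, 83.7 and 40.1 CPM in IPN and 91.3, 210.8 and 77.3 CPM in non-IPN.

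Zeb2 was abundant in both populations and did not differ between them beyond the spread over days. Zeb1 changed sides with age, though this change was not called in the main fit. Zeb2 (also Sip1) is known in the embryo from the sorting of interneurons out of the ventral forebrain and from the timing of signals sent by cortical neurons. Zeb1 is known from progenitors.

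Zeb2 was at 582.5, 607.9 and 2154 CPM in IPN at E13.5, then E15.5, then E16.5, and at 431.0, 845.5 and 2502 CPM in non-IPN. The IPN to non-IPN ratio was 1.35-fold at E13.5, 0.719-fold at E15.5 and 0.861-fold at E16.5. The fitted difference was 0.05 ± 0.22 (limma adjusted p = 0.939), and it was -0.09 with scaling to column totals, so no direction can be given.

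The large difference of Zeb2 was with age. Between the amplified days it was 3.70-fold higher in CPM at E16.5 than at E13.5 in IPN and 5.81-fold higher in non-IPN. The fitted E16.5 minus E13.5 difference was 2.09 ± 0.27 (limma adjusted p = 0.00332). The spread behind this p-value is how the population difference varied over the 3 days, with 1 library of each population per day. P-values for age, here and for the other genes, thus hold no spread between embryos of the same age. Without the E15.5 pair the call held (adjusted p = 0.0240), and leaving out any 1 of the 4 amplified libraries ended it, with adjusted p from 0.227 to 0.504. Those 4 reduced fits called 0 of all tested genes at an adjusted p under 0.05 and 1809 to 4025 at an unadjusted p under 0.05.

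Cell types other than projection neurons, in which Zeb2 is also known, marked the non-IPN libraries. The 10 genes of GABAergic neurons and the Dlx family summed to 26.8, 72.9 and 67.4 CPM in IPN at the 3 days, with Dlx5 and Dlx6 at 0 at E13.5 and Slc32a1 and Dlx6 at 0 at E16.5, and to 1495, 5121 and 2949 CPM in non-IPN; 10 of 10 were called lower in IPN. The 12 microglia and macrophage genes summed to 5.24, 2.30 and 1.78 CPM in IPN and to 930.3, 954.6 and 474.7 CPM in non-IPN, with 12 of 12 called lower in IPN, and Sfpi1, the myeloid transcription factor PU.1, was at 0 in every IPN library. Their part in the Zeb2 level of non-IPN was not tested.

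Zeb1 was at 63.0, 29.4 and 64.8 CPM in IPN at E13.5, then E15.5, then E16.5, and at 156.2, 30.1 and 40.8 CPM in non-IPN. It was thus 2.48-fold lower in IPN at E13.5, close to equal at E15.5 (ratio 0.976) and 1.59-fold higher in IPN at E16.5. Ratios here are in CPM; the deposited values at E15.5 gave a log2 difference of 0.02. The fitted population difference over all days was -0.09 ± 0.35 (limma adjusted p = 0.937). The population by day term, which asks whether the population difference moves with embryonic day, was 0.67 ± 0.16 log2 units per day for Zeb1. It did not pass (limma adjusted p = 0.0570). This term passed with a pseudocount of 0.5 (0.0290), median-of-ratios scaling (0.00209) and column totals (0.0172). It did not pass with a pseudocount of 8 (0.119), among genes of at least 10 CPM (0.0607) or without limma's trend and robust options (0.406). Most of the movement was in non-IPN, where the level was 3.83-fold lower at E16.5 than at E13.5, while IPN was at a ratio of 1.03. The E13.5 non-IPN library that held the high Zeb1 value also held the highest sums of radial glia genes (4689 CPM over 10 genes, against 395.5 to 1294 CPM in the IPN libraries and 654.7 and 1105 CPM in the later non-IPN libraries) and of cell cycle genes (3892 CPM over 8 genes, against 249.6 to 1206 CPM in every other library). Their part in the Zeb1 value was not tested. The 8 genes of mesenchyme and meninges, tissues where Zeb1 is also known, summed to 114.6 CPM in that library, with Lum and Twist1 at 0, and to 2.20 to 18.9 CPM in the others. Endothelial and pericyte genes (8) summed to at most 9.12 CPM and oligodendrocyte precursor genes (6) to at most 4.21 CPM in any library, with 0 called between populations in either list by limma.

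The corepressors and known target genes of the Zeb factors were not called between the populations. Ctbp1 and Ctbp2, the corepressors that Zeb proteins recruit, were not called (-0.05 ± 0.20 and 0.49 ± 0.22). Of 13 partners of these factors (CtBP, NuRD subunits, Bhlhe22 and Dnmt3a), 1 was called higher and 1 lower in IPN and 0 were called with age. Over all tested genes, 0.982% were called higher and 2.41% lower in IPN, and 6.02% were called with age. Of 10 genes that Zeb factors are known to repress, 0 were called in the population, age or population by day comparison with limma. Over all tested genes these shares were 3.39%, 6.02% and 1.3%. Among these, the epithelial genes Cdh1, Esrp2, Epcam, Crb3, Ocln and Esrp1 were at or under 1.43 CPM in every library. Nkx2-1, a factor of the medial ganglionic eminence that Zeb2 represses in migrating interneurons, was at 0.194, 0.0307 and 0.0684 CPM in IPN and at 3.79, 1.72 and 0.477 CPM in non-IPN (-3.45 ± 0.93, limma adjusted p = 0.0879). Ntf3, a neurotrophin known as a Zeb2 target in the cortex, was at 4.52, 2.06 and 10.1 CPM in IPN and at 0.0715, 0.159 and 27.3 CPM in non-IPN.

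Myt1 was high in 1 library, IPN at E13.5, and Myt1l was low in both populations at E13.5. Both encode zinc finger proteins of the CCHC type; Myt1 is known from the first steps of neuronal commitment and Myt1l from neurons that have left the cell cycle.

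Myt1 was at 331.7, 132.8 and 92.9 CPM in IPN at E13.5, then E15.5, then E16.5, and at 78.4, 142.9 and 109.7 CPM in non-IPN. In CPM the populations differed 4.23-fold at E13.5, and on the later days IPN was at 0.929 and 0.846 of non-IPN. The deposited values of those later days gave log2 differences of -0.05 and -0.02. The population difference over all days was not called (0.72 ± 0.40, limma adjusted p = 0.508) and was -0.04 without the E13.5 pair.

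The population by day term of Myt1 was -0.81 ± 0.17 log2 units per day (limma adjusted p = 0.0361), the only one called among the 9 genes, where 0.68% of tested genes were called lower, 0.624% higher and 1.3% in either direction. It was not called with a pseudocount of 8 (adjusted p = 0.109) or without limma's trend and robust options (0.408), and this fit has 1 residual degree of freedom. St18, the remaining member of the Myt1 family, moved the same way (-1.34 ± 0.20 per day, adjusted p = 0.00455). It was at 164.0, 29.0 and 11.4 CPM in IPN and at 24.4, 18.1 and 31.6 CPM in non-IPN, higher in IPN at E13.5 and lower in IPN at E16.5.

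Myt1l was at 124.8, 498.2 and 468.1 CPM in IPN at E13.5, then E15.5, then E16.5, and at 41.7, 415.8 and 426.1 CPM in non-IPN. The ratio was 2.99-fold at E13.5, 1.198-fold at E15.5 and 1.10-fold at E16.5, and the population difference was not called (0.80 ± 0.28, limma adjusted p = 0.217) and was 0.33 without the E13.5 pair. Between the amplified days Myt1l rose with age. It was 3.75-fold higher at E16.5 than at E13.5 in IPN and 10.2-fold higher in non-IPN, with a fitted difference of 2.51 ± 0.35 (limma adjusted p = 0.00428). Leaving out any 1 amplified library ended this call too (adjusted p from 0.227 to 0.505). The population by day term of Myt1l was -0.49 ± 0.16 and not called (limma adjusted p = 0.135), but it was called with median-of-ratios scaling (0.0155) and column totals (0.0280). It was also not called with a pseudocount of 0.5 (0.0979) or 8 (0.209), among genes of at least 10 CPM (0.148) or without limma's trend and robust options (0.485).

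None of the Notch genes that Myt1 and Myt1l are known to repress passed the test between populations. Hes1, the main Notch effector, was at 0.776, 1.26 and 0.752 CPM in IPN and at 50.6, 3.03 and 2.15 CPM in non-IPN at the 3 days, a difference that did not pass (-2.73 ± 0.95, limma adjusted p = 0.207). Notch1 was at 11.0, 24.9 and 4.58 CPM in IPN and at 58.4, 49.5 and 10.2 CPM in non-IPN; it fell with age (-1.998 ± 0.48, adjusted p = 0.0375). Of the 5 genes Hes1, Hes5, Notch1, Notch2 and Rbpj, 0 were called between populations with limma, with a median difference of -1.37. Over all tested genes, 3.39% were called between populations. The E13.5 non-IPN library, with the highest radial glia sum, also held the highest values of Hes1, Hes5, Notch1 and Notch2.

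**Figure D3:**
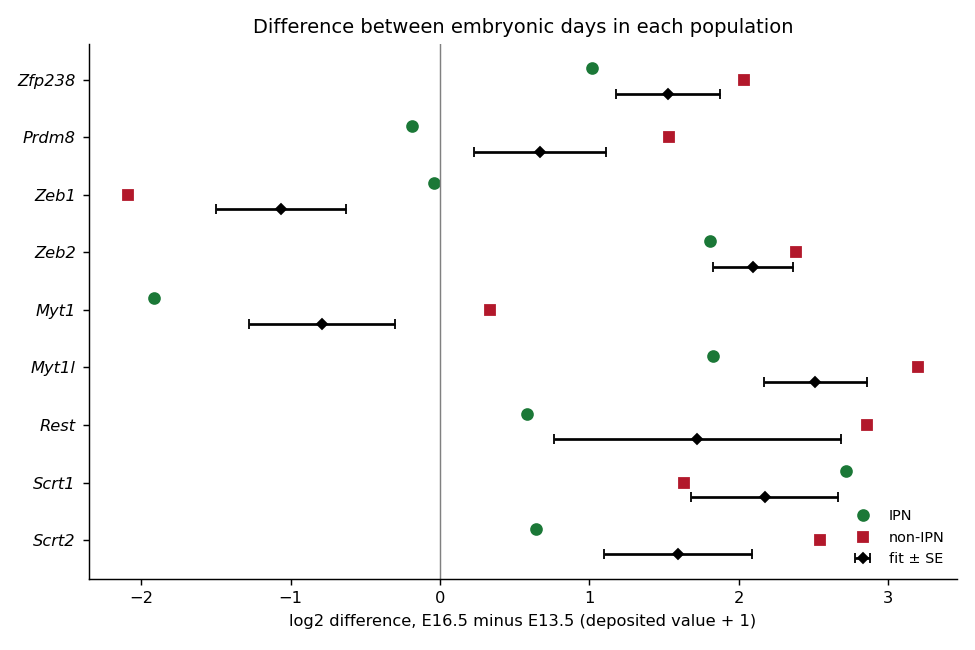
Log2 difference of E16.5 minus E13.5, from deposited values plus 1, in IPN (green circles) and non-IPN (red squares), with the fitted difference and its SE over 6 libraries as black diamonds. The values of 6 genes lie right of 0 in both populations, Zeb1 lies left of 0 in both (at -0.04 in IPN, a sign that turns in CPM), and Prdm8 and Myt1 have opposite signs in the 2 populations.

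Over the 9 genes, 4 rose between E13.5 and E16.5 (Myt1l, Zeb2, Scrt1 and Zfp238) and 0 fell, where 3.76% of tested genes were called higher, 2.26% lower and 6.02% in either direction. The median difference was 1.59, beside 0.00 over all tested genes. In the same comparison limma called 8 of 8 cell cycle genes and 6 of 8 intermediate progenitor genes lower at E16.5, 2 of 10 radial glia genes lower, 3 of 10 GABA and Dlx genes higher and 1 of 10 projection neuron genes higher. The intermediate progenitor list summed to 890.7 CPM at E16.5 and 1805 CPM at E13.5 in IPN, and to 630.0 CPM at E16.5 and 1924 CPM at E13.5 in non-IPN, with none of the 8 at 0. The part of these cell states in the age differences was not tested. The level was higher at E16.5 in both populations for 6 of the 9 (27.4% of tested genes) and lower in both for Zeb1 (24.5% of tested genes). For Zeb1 the IPN difference was -0.04 in deposited values and the CPM ratio 1.03, so that its sign depends on the scale. Rest is among the 6, but its rise in IPN rests on deposited values of 3 at E13.5 and 5 at E16.5. Zfp238 was 2.14-fold higher in CPM at E16.5 than at E13.5 in IPN and 4.56-fold higher in non-IPN (1.53 ± 0.35, limma adjusted p = 0.0321). This call was lost with a pseudocount of 8 (adjusted p = 0.0888), column totals (0.119), median-of-ratios scaling (0.0512) and without the E15.5 pair (0.0668), and the difference was 0.83 when non-IPN at E16.5 was left out, the non-IPN library with the highest projection neuron sum (2935 CPM).

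Rest was low in all amplified libraries and lower in IPN at every day. Rest (also NRSF) is the zinc finger repressor that binds RE1 sequences in neuronal genes and recruits corepressors, among them the Rcor proteins and Sin3a. It was at 0.194, 15.1 and 0.342 CPM in IPN at E13.5, then E15.5, then E16.5, and at 1.07, 30.2 and 9.14 CPM in non-IPN. In deposited values the amplified libraries held 3 and 5 in IPN and 15 and 115 in non-IPN. Over the days the populations overlapped, because IPN at E15.5 lay above non-IPN at the amplified days. Within a day IPN was 5.53-fold, 2.01-fold and 26.7-fold lower, but the E13.5 and E16.5 ratios rest on an IPN value of 5 or less. The fitted difference was -2.41 ± 0.79 and did not pass (limma adjusted p = 0.171), and it was -1.47 without the E16.5 pair. Its age difference did not pass either (1.72 ± 0.96, adjusted p = 0.338); it was 0.32 without the E16.5 non-IPN library and 3.12 without that of IPN.

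Corepressors of Rest were found in both populations and were not called between them, but some were low on the amplified days. Of 19 such genes, 0 were called between populations and 0 in the population by day term with limma, with a median population difference of -0.04. Over all tested genes, 3.39% and 1.3% were called in these comparisons. Kdm1a, the histone demethylase LSD1, was at 462.3, 338.8 and 372.4 CPM in IPN and at 281.1, 300.5 and 340.6 CPM in non-IPN. Rcor2, a CoREST protein, was at 36.2, 214.7 and 29.5 CPM in IPN and at 21.8, 97.0 and 24.6 CPM in non-IPN, higher in IPN at each day but not called (0.85 ± 0.26, limma adjusted p = 0.141). Rcor1 was lower in level, at 0.711, 34.5 and 6.43 CPM in IPN and at 1.43, 29.6 and 3.34 CPM in non-IPN. Between E13.5 and E16.5, 2 of the 19 were called higher and 0 lower with limma (3.76% and 2.26% of all tested genes). Among them was Smarca4, a chromatin remodeling ATPase (1.45 ± 0.26, limma adjusted p = 0.0119).

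A minority of the neuronal genes known to carry RE1 sequences were called. Of 23 such genes, 3 were called higher in IPN (0.982% of all tested genes were): Syt4, a synaptotagmin (2.10 ± 0.41), the adhesion molecule L1cam (1.19 ± 0.24) and the AMPA receptor subunit Gria2 (1.05 ± 0.23), with limma adjusted p from 0.0242 to 0.0332. Calb1, a calcium-binding protein of interneurons, was called lower (-7.92 ± 0.91, adjusted p = 0.00127; it was at 0 in IPN at E13.5 and E16.5, so this fold depends on the pseudocount). The median difference of the 23 was 0.64. Between E13.5 and E16.5, 5 rose and 0 fell (3.76% and 2.26% of all tested genes), among them the sodium channel Scn2a1 (3.83 ± 0.40, limma adjusted p = 0.00136), the NMDA receptor subunit Grin1 (2.76 ± 0.60, adjusted p = 0.0264), Celsr3 (1.88 ± 0.40, adjusted p = 0.0240) and Snap25 (1.85 ± 0.26, adjusted p = 0.00477). Scn2a1 was at 98.8 CPM at E16.5 and 9.95 CPM at E13.5 in IPN, and at 87.6 CPM at E16.5 and 3.57 CPM at E13.5 in non-IPN.

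Scrt1 and Scrt2 stood at 204.7 to 292.7 CPM at E15.5 and at 0.969 to 16.1 CPM on the amplified days. Both encode Scratch proteins, neuron-specific members of the Snail superfamily that repress through E-boxes and are known from newborn neurons as they detach and migrate. Scrt1 was at 0.969, 204.7 and 7.11 CPM in IPN at E13.5, then E15.5, then E16.5, and at 2.07, 292.7 and 7.31 CPM in non-IPN. Scrt2 was at 8.53, 236.7 and 14.2 CPM in IPN and at 2.43, 216.5 and 16.1 CPM in non-IPN. At E15.5 the 2 populations were within 1.43-fold of each other for Scrt1 and 1.09-fold for Scrt2.

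Neither gene separated the populations. The fitted difference was -0.40 ± 0.40 for Scrt1 (limma adjusted p = 0.754) and 0.71 ± 0.40 for Scrt2 (adjusted p = 0.513). Without the E13.5 pair these were -0.14 and 0.10. At E13.5 Scrt2 was 3.51-fold higher in IPN and Scrt1 was 2.14-fold lower in IPN, but these values rest on deposited values of 132 and 34 for Scrt2 and 15 and 29 for Scrt1. Scrt1 was called higher at E16.5 than at E13.5 (2.17 ± 0.49, limma adjusted p = 0.0312). This call was lost with a pseudocount of 8 (0.0719), column totals (0.0855) and without the E15.5 pair (0.283). Scrt2 was at 1.59 ± 0.49 and not called (adjusted p = 0.0891), with 0.68 when non-IPN at E13.5 was left out and 2.505 when IPN at E13.5 was.

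Both Scratch transcripts are rich in G and C. In the longest coding transcript of GENCODE M21 (GRCm38), the GC content was 64.8% for Scrt1 and 63.2% for Scrt2, against 40.6% to 53.1% for the other 7 genes and a median of 49.4% over 9245 genes with a mean of at least 10 CPM. The mean E15.5 level was 56.9-fold the mean level of the amplified libraries for Scrt1 and 21.97-fold for Scrt2, at percentiles 99.5 and 98.2 of the 9349 genes with a mean of at least 10 CPM. Across genes, the ratio of E15.5 to amplified libraries followed GC content. Its median on the log2 scale was -0.71 in the lowest of 10 equal bins of GC content and 2.36 in the highest bin (Spearman's rho 0.621 over 9245 genes, which share the same 6 libraries and are not independent). The E16.5 minus E13.5 difference also had a median of 0.43 in the highest bin, beside -0.07 to 0.19 in the other bins. The median of the population difference ran from 0.04 to 0.15 over the same bins. The part of GC content in the Scrt1 and Scrt2 levels was not tested.

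Rest, at 47.2% GC, was 8.42-fold higher at E15.5 than in the amplified libraries, at percentile 93.3, and Zeb1, at 46.1% GC, was at 0.367 of them, at percentile 9.36. Zfp238 and Zeb2, with 42.4% and 40.6% GC, were at 0.594 and 0.513. Prdm8, Myt1 and Myt1l were at 1.503, 0.900 and 1.72.

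**Figure D4:**
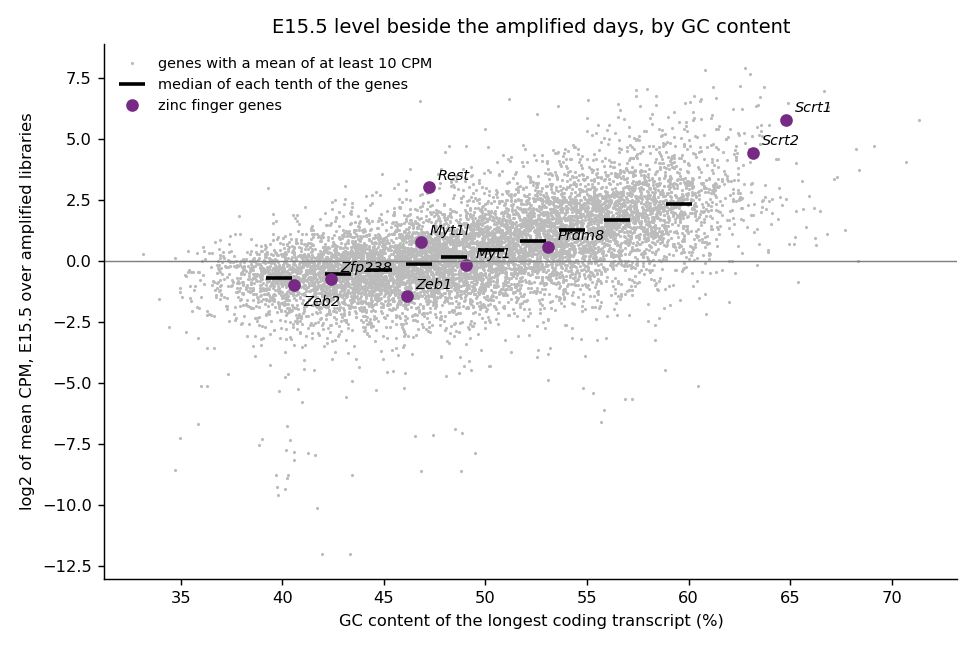
GC content of the longest coding transcript (x axis, percent) against the log2 ratio of mean CPM (plus 0.1) in the 2 E15.5 libraries over the 4 amplified libraries (y axis), for genes with a mean of at least 10 CPM (grey), the median of each of 10 GC bins (black bars) and the 9 zinc finger genes (purple). Scrt1 and Scrt2 lie at the high end of both axes, at 64.8% and 63.2% GC.

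The order of the 9 genes by level was compared per kilobase of the longest coding transcript. Zfp238 had the highest level in 5 of the 6 libraries, from 38.5 to 698.4 CPM per kilobase over all 6, with a median of 302.2. The exception was non-IPN at E15.5, where Zeb2 led with 92.7 CPM per kilobase and Zfp238 was at place 5. The order differed between the protocols. At E15.5, Scrt2 was at place 2 in IPN and 3 in non-IPN, and Scrt1 at place 5 and 2. In every amplified library Scrt2 was at place 7 and Scrt1 at place 8. The part of the protocol in this order was not tested. Rest had the lowest level in 5 of the 6 libraries, from 0.0277 to 4.31 CPM per kilobase, and Prdm8 had the lowest in non-IPN at E15.5, with 3.12. With 1 library per population and day, neighbors in this order have no spread of their own and cannot be told apart by a test.

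The genes whose pattern over the 6 libraries was most like that of each member were taken by the Pearson correlation of log2(CPM + 1) among 9341 other genes. These correlations describe 6 libraries that share 2 protocols, 3 days and 2 populations, and high values are common with so few points. Zfp238 was nearest to the homeobox gene Onecut2 (r = 0.989) and to Nfib (r = 0.988), a nuclear factor I protein of projection neurons and glia, which was at 1631, 2099 and 2636 CPM in IPN and at 508.9, 307.0 and 1192 CPM in non-IPN. Prdm8 was nearest to Tbr1 (r = 0.990) and Neurod6 (r = 0.976), transcription factors of projection neurons. Tbr1 was at 510.1, 766.2 and 384.4 CPM in IPN and at 61.3, 79.2 and 223.9 CPM in non-IPN. Zeb1 was nearest to Eif3a (r = 0.996) and to Atad2 (r = 0.994), and Atad2 was at 77.0, 19.1 and 70.2 CPM in IPN and at 325.6, 22.8 and 44.3 CPM in non-IPN. Zeb2 was nearest to Tab3 and Slc5a3, Myt1 to Bbs4 and Armcx2, and Myt1l to Kalrn and Eif4g3. Rest was nearest to 2810408M09Rik and Tbc1d1, Scrt1 to Atf6b and Zmym3, and Scrt2 to Nfe2l1 and to the neuronal tubulin Tubb3, all 6 of which were highest at E15.5. Between members, the highest values were Scrt1 with Scrt2 (r = 0.965), Rest with Scrt1 (0.880), Zfp238 with Prdm8 (0.858) and Rest with Scrt2 (0.836). The most negative were Zeb1 with Scrt2 (-0.894) and Zeb1 with Myt1l (-0.871).

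**Figure D5:**
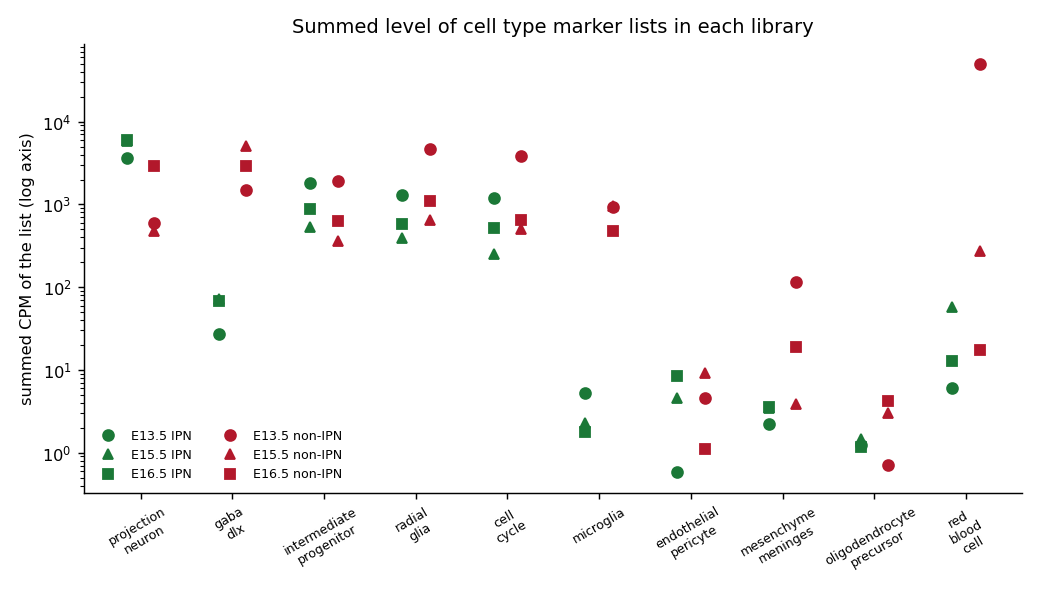
Summed CPM (log axis) of each cell type marker list in the 6 libraries, with IPN in green on the left and non-IPN in red on the right of each list, and E13.5 as circles, E15.5 as triangles and E16.5 as squares. The GABA and Dlx and microglia lists lie far lower in IPN, and the red blood cell list reaches 49254 CPM in the E13.5 non-IPN library.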

How the data were processed

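RNA sequencing had been run on 6 libraries, and each of the authors' deposited files paired gene symbols with whole numbers. These deposited values were taken as a scaled signal and not as raw counts, because their upper quartiles match within a protocol (438 to 444 amplified, 1501 to 1501.5 unamplified) while totals do not; the scaling method is unknown. The submitters' processing notes list edgeR, SAMtools 0.1.18, TopHat 1.2.0, CASAVA 1.9 and the build mm9; the sources used here give no roles, read counter, strand use or annotation.

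Files were joined by symbol, and 3 symbols listed more than once were dropped. CPM rescales deposited values to a library sum of 1000000. Models were fitted in R 4.3.3 with limma 3.58.1, using its trend and robust options, on log2(value + 1) over 19561 genes, with Benjamini-Hochberg adjustment over all of them, so fold changes of low genes are understated. Day as a factor and population gave the population and age differences, and a second fit added population by day as a number. The fits were tested on simulated data. The population by day fit called none of the changed genes there, and the population and age fits missed many of them. A gene that was not called may thus still differ. The members and the 17 lists (191 genes, all matched) were chosen with earlier results of these data known. Named genes were the 9 members, Eomes, Dcx, the 4 largest called differences per list and comparison at a mean of at least 10 CPM, any listed corepressor, partner, Zfp238 target or Notch gene, and 2 genes per member by likeness. Promoters are from RefSeq. Values of Cdh1, Esrp1, Esrp2, Epcam, Crb3, Ocln, Pard6b, Nkx2-1 and Ntf3 are given outside that rule and were chosen after being seen. 1 result is not reported here.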

Additional observations from a re-analysis of the deposited data

Results flagged for a closer look

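Myt1 was flagged because its population difference moved with embryonic day: the population by day term was -0.81 log2 units per day (limma adjusted p = 0.0361). In CPM, IPN was 4.23-fold above non-IPN at E13.5 and at 0.929 and 0.846 of it at E15.5 and E16.5. The deposited values, on which the term was fitted, gave log2 differences of 2.23, -0.05 and -0.02 on these days. The E16.5 minus E13.5 difference of Myt1 was -1.92 in IPN and 0.33 in non-IPN on the log2 scale.

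Prdm8 was flagged because its E16.5 minus E13.5 difference had opposite signs in the 2 populations, -0.19 in IPN and 1.53 in non-IPN on the log2 scale. This contrast of 2 single changes was not tested by itself, and the population by day term of Prdm8 over all 3 days was -0.50 ± 0.20 and not called (limma adjusted p = 0.234).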

How the results depend on the processing

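Of the 9 genes, 2 were called higher in IPN; the count was 0 with column total scaling, 0 with limma without its trend and robust options, 0 without day as a replicate block (adjusted p = 0.362 for Zfp238 and 0.856 for Prdm8), and 0 to 2 when 1 day was left out. With age, 4 rose; the count was 2 with a pseudocount of 8, 2 with column totals, 0 without limma's options, and 0 to 2 when 1 library or the E15.5 pair was left out. In the population by day term, 1 gene was called higher with a pseudocount of 0.5, with column totals and with median-of-ratios scaling, and the number called lower was 1 in the main setting, 0 with a pseudocount of 8 and without limma's options, 2 with column totals and 3 with median-of-ratios scaling. Directions turned for Zeb2 between populations with column totals (-0.086). When 1 day was left out, the population difference ran from -0.57 to 0.45 for Zeb1, from -0.21 to 0.29 for Zeb2, from -0.038 to 1.10 for Myt1, from 0.33 to 1.04 for Myt1l and from 0.10 to 1.05 for Scrt2; when 1 library was left out, the age difference ran from -0.16 to 1.51 for Prdm8 and from -1.92 to 0.34 for Myt1. The causes were not tested.

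Over all tested genes, the population fit called 192 higher and 472 lower, and 13 and 183 with column totals, 93 and 271 with a pseudocount of 8, 1 and 53 without the E15.5 pair, and 0 both without limma's options (1946 at an unadjusted p under 0.05) and without the block (676). The age fit called 736 higher and 442 lower, and 351 and 178 with a pseudocount of 8, 183 and 61 with column totals, 64 and 33 without the E15.5 pair and 0 without limma's options (3414 unadjusted). The population by day fit called 122 and 133, and 258 and 272 with a pseudocount of 0.5, 14 and 5 with a pseudocount of 8, 56 and 79 among genes of at least 10 CPM, 517 and 389 with column totals, 878 and 680 with median-of-ratios scaling and 0 without limma's options (2321 unadjusted). Among genes of at least 10 CPM, the median population difference was 0.09 as deposited and -0.05 with column totals, and the median age difference 0.05 and 0.16. Leaving out a library in the population by day fit leaves no residual degrees of freedom, so no value is given. With 1 library per population and day and unknown depth, low values such as those of Rest and Scrt1 in amplified libraries have no interval.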

Other observations

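Relatives of these genes outside the 9 were also followed. Of 25 zinc finger relatives, limma called 1 higher and 2 lower in IPN, where 0.982% and 2.41% of all tested genes were called. With age 1 was called higher and 0 lower, where the shares over all tested genes were 3.76% and 2.26%. In the population by day term 1 was called in each direction, where the shares were 0.624% higher and 0.68% lower. Insm1, a Snail-type factor of intermediate progenitors, was higher in IPN (1.19 ± 0.24, adjusted p = 0.0221), at 390.2, 178.9 and 542.8 CPM in IPN and at 274.3, 54.4 and 282.7 CPM in non-IPN at E13.5, then E15.5, then E16.5. Zbtb16, also called PLZF, was lower in IPN (-3.99 ± 0.70, adjusted p = 0.0108), at 0.259, 2.92 and 0.137 CPM in IPN and at 3.07, 70.1 and 4.69 CPM in non-IPN. Zbtb20 rose with age (3.62 ± 0.78, adjusted p = 0.0246) and was highest at E16.5, at 15.4 CPM in IPN and 36.2 CPM in non-IPN. Prdm16, known from radial glia, had a positive population by day term (1.64 ± 0.27 per day, adjusted p = 0.00938), at 3.55, 19.1 and 16.004 CPM in IPN and at 34.0, 15.8 and 5.24 CPM in non-IPN.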
